A study of Mus musculus with 17 samples.

Results

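Hypoxia response genes were followed in whole kidneys of 17 male mice. The set was chosen by gene symbol and holds 10 of the 22558 genes used, namely the oxygen-regulated transcription factor subunits Hif1a and Epas1, the prolyl hydroxylases Egln1 and Egln3, and the target genes Pdk1, Car9, Bnip3, Adm, Ankrd37 and Ndrg1. The Ctrl group held 5 C57BL/6 mice, labelled WT, which received saline. The Case group held 6 db/db mice (BKS.Cg-Dock7m +/+ Leprdb/J), which lack a working leptin receptor and become obese and diabetic, and these received saline as well. The Dapa group held 6 db/db mice given dapagliflozin, a blocker of the sodium-glucose transporter SGLT2, by gavage at 1.0 mg/kg/day for 6 weeks. All mice were 8 weeks old at the start, ate standard chow and were killed by cervical dislocation after CO2 narcosis, so the kidneys of every group passed through the same narcosis before RNA was taken. C57BL/6 and BKS are different strains, so a difference between Ctrl and db/db mice due to the strain cannot be told apart from one due to the db alleles or diabetes.

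Cells sense oxygen through hypoxia-inducible factors (HIFs). The alpha subunits HIF-1α (from Hif1a) and HIF-2α (from Epas1) are made all the time, but while oxygen is present the prolyl hydroxylases mark them for destruction through the von Hippel-Lindau protein. When oxygen falls the subunits persist, pair with ARNT, and bind short DNA motifs called hypoxia response elements near genes for glycolysis, mitochondrial control, vessel growth and pH. Most of this control acts on the protein, so RNA levels of the subunits do not report HIF activity, which was not measured here. In the kidney, oxygen tension is low in the medulla, HIF-1α is known mainly from tubules, and HIF-2α from endothelium and interstitial cells.

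The core of a hypoxia response element reads ACGTG or GCGTG. Both motifs were searched on both strands in the 250 bases before each RefSeq transcription start (GRCm38.p6), and the palindrome CACGTG was counted once on each strand. Windows were matched by symbol for 8 of the 10 genes (9 windows, since Pdk1 has 2 starts). Each of these 8 genes had at least 1 core, and 8 of the 9 windows had one, against 38.6% of the 32851 windows of all genes, where 16.6% held ACGTG, 28.2% held GCGTG and some held both. Both cores hold the letters CG, which occurred 2 to 51 times in the 9 windows, with a median of 6 over all windows. Of all windows with at least 2 CG, 46.1% had a core. The part of CG content in the difference was not tested. Bnip3 had 5 cores, Ankrd37 had 4, Hif1a had 3, Egln1 and Adm had 2 each, and Egln3, Pdk1 and Car9 had 1 each. A match describes letters only and does not show that a factor binds there. The Hif1a window lies inside the locus deposited for that gene (chr12:73901375-73947530), so it is not ahead of the whole gene as counted. Annotated exons covered all 250 bases of the second Pdk1 window, 70 of Egln1, 60 of Car9, 17 of Ankrd37 and 13 of Bnip3.

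The windows of the 3 genes that differed from Ctrl in the results below (Hif1a, Egln3 and Pdk1) and of Adm, a target that did not pass any test, are printed 5′ to 3′ on the strand of the gene, with the cores in capitals; a core on the opposite strand is printed as its reverse complement, CACGT or CACGC. They lie at chr12:73907617-73907866 (plus strand) for Hif1a, chr12:54203875-54204124 (minus strand) for Egln3, chr2:71872974-71873223 (plus strand) for Pdk1 and chr7:110627407-110627656 (plus strand) for Adm, and none of their bases fell in an annotated exon.
Hif1a: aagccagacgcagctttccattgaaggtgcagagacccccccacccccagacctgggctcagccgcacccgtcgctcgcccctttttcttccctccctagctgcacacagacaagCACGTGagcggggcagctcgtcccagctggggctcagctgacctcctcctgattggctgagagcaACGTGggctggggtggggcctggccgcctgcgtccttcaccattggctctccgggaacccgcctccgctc
Egln3: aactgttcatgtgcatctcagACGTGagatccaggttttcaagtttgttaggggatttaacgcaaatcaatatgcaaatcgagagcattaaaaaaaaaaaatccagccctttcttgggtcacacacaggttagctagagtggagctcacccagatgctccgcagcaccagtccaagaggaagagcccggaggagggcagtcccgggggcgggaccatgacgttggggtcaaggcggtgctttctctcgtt
Pdk1: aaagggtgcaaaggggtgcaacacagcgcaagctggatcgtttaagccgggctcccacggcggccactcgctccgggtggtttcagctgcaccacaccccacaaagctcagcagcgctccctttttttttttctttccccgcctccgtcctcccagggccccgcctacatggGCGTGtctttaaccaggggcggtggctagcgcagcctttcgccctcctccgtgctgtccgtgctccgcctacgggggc
Adm: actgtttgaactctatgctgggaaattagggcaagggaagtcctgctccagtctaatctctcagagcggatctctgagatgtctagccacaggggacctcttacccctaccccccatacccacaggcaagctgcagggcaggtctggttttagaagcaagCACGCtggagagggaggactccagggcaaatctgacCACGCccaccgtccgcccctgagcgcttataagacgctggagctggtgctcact
In Hif1a the cores began 135, 134 and 70 bases before the start, the first pair being the palindrome. The single core of Egln3 began 229 bases and that of Pdk1 began 78 bases before it, and those of Adm began 90 and 54 bases before it. Bnip3 with 5 cores and Adm with 2 did not pass the test in any comparison.

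**Figure D1:**
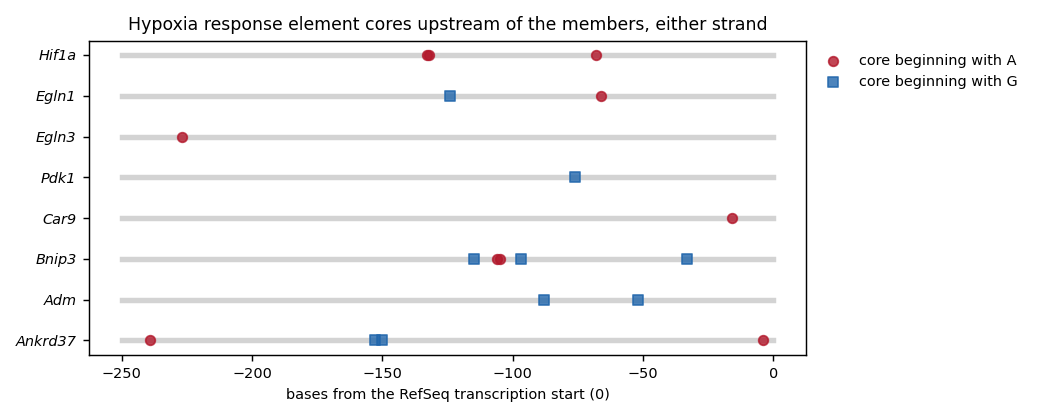
Positions of the 2 kinds of hypoxia response element core (either strand) in the 250 bases upstream of the first RefSeq start of 8 genes; the x axis gives bases from the start, and each point marks the middle of a core. Bnip3 and Ankrd37 hold the most cores (5 and 4), while Egln3, Pdk1 and Car9 hold 1 each.

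Expression is given as FPKM, fragments scaled to the length of the gene and the total of the library. In Ctrl kidneys Ndrg1 had the highest level of the 10 genes, with a mean of 346 FPKM. Bnip3 (45.3 FPKM), Epas1 (23.8 FPKM), Egln1 (19.3 FPKM), Hif1a (12.3 FPKM) and Car9 (7.68 FPKM) followed, and Egln3 (6.52 FPKM), Pdk1 (4.16 FPKM), Adm (2.35 FPKM) and Ankrd37 (0.314 FPKM) were lower. Of neighbours in this order, Epas1 and Egln1 overlapped among the 5 Ctrl mice, as did Car9 and Egln3, and the others did not overlap. In Case kidneys Pdk1 (10.2 FPKM) and Egln3 (10.1 FPKM) stood above Car9 (6.38 FPKM) in mean level.

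Log2 fold changes were estimated from the counts with edgeR's quasi-likelihood test, whose scaling (TMM) also corrects for library composition, so they can differ from ratios of FPKM means. Ranges and overlaps of groups refer to FPKM, which lack this scaling. Its factors over all mice were 0.912 to 0.990 in Ctrl and 0.942 to 1.07 in the db/db groups. A gene passed when its q, the Benjamini-Hochberg adjusted p over all genes tested, was under 0.05. The Case and Dapa groups were each compared with the same 5 Ctrl mice, and the comparison of Dapa with Case used the same Case mice, so the 3 comparisons are not independent. Values are means ± SD over mice or log2 fold changes ± SE. The tissue is bulk kidney, where a change in the share of cells that express a gene and a change of RNA per cell cannot be told apart.

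The comparison of Case with Ctrl addressed what differs in the diabetic kidney. Egln3 and Pdk1 rose, and the other 8 genes did not pass the test. This is 2 of 10 genes against 13% of all 14582 genes tested, and the median log2 fold change was 0.16 for the 10 genes and 0.03 for all genes tested. Among all genes, 6.09% were called higher and 6.91% lower. All 10 genes had enough counts to be tested in each comparison.

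Pdk1 (chr2:71873224-71903858) encodes a kinase that switches off pyruvate dehydrogenase and so holds pyruvate back from the mitochondrial citric acid cycle. Its levels in Ctrl kidneys were 3.82, 4.32, 3.55, 5.03 and 4.09 FPKM. In Case kidneys they ran from 8.26 through a median of 10.4 to 12.4 FPKM. Every Case kidney was above every Ctrl kidney, a separation upward that 4.97% of all genes tested showed. The group means of 10.2 ± 1.63 FPKM (n = 6) and 4.16 ± 0.564 FPKM (n = 5) differed 2.46-fold, and the log2 fold change was 1.23 ± 0.13 (q = 0.000221, edgeR's quasi-likelihood test). Pdk1 was the only one of the 10 genes that met the study's rule for a differentially expressed gene (q under 0.05 and fold above 2), which 3.79% of all genes tested met.

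Egln3 (chr12:54178981-54203860) encodes PHD3, a prolyl hydroxylase that is itself a well-known HIF target. The Ctrl values were 7.08, 6.43, 6.69, 6.84 and 5.55 FPKM, and the Case values ran from 7.53 through 10.5 to 11.9 FPKM. In FPKM again no Case kidney overlapped with Ctrl, although the lowest Case value lay close to the highest Ctrl value. After TMM scaling (factor 1.07 for Case replicate 3 and 0.912 for Ctrl replicate 1), Case replicate 3 lay below Ctrl replicate 1. The log2 fold change was 0.56 ± 0.14 (q = 0.02, edgeR's quasi-likelihood test), from 6.52 ± 0.589 FPKM to 10.1 ± 1.69 FPKM. Without Ctrl replicate 5, the lowest library, it was 0.48 and did not pass (q = 0.0627, same edgeR test).

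Egln1 (chr8:124908596-124949254) encodes PHD2, the main oxygen sensor of most cells. It had 19.3 ± 1.42 FPKM in Ctrl (17.1 to 20.6) and 17.3 ± 2.21 FPKM in Case (14.1 to 19.8), a log2 fold change of -0.24 ± 0.1 that did not pass (q = 0.135, edgeR's quasi-likelihood test). The ratio of Egln3 to Egln1 in the same kidney, formed after the values of both had been seen, used FPKM and so does not depend on library scaling. It was 0.340 ± 0.0519 in Ctrl and 0.593 ± 0.117 in Case, with no overlap (highest Ctrl 0.414, lowest Case 0.450). As the ratio was formed from differences already seen, it is given as a description with no test.

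Hif1a (chr12:73901375-73947530), the HIF-1α gene, had 11.5, 13.3, 12.3, 12.6 and 11.7 FPKM in Ctrl kidneys. Case kidneys ran from 13.2 through 15.4 to 19.5 FPKM. Of the 6 Case kidneys 5 were above every Ctrl kidney, and the remaining one lay just under the highest Ctrl value. The log2 fold change of 0.29 ± 0.09 fell just short of the threshold (q = 0.0546, edgeR's quasi-likelihood test). It passed under 5 of the other settings and without Case replicate 5 or 6. It did not pass under 7 other settings, nor in 9 of 11 fits with 1 mouse left out (highest q = 0.145, same edgeR test). Epas1 (chr17:86753907-86833410), the HIF-2α gene, had 23.8 ± 4.67 FPKM in Ctrl and 25.9 ± 3.86 FPKM in Case, with overlapping values and a log2 fold change of 0.04 ± 0.13 (95% interval -0.25 to 0.34).

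The 5 other targets did not pass, and their groups overlapped. Ndrg1 (chr15:66929321-66969640), a stress-responsive differentiation gene, ran from 274 to 441 FPKM in Ctrl and from 195 to 396 FPKM in Case (log2 fold change -0.23 ± 0.17). Bnip3 (chr7:138890836-138909519), a mitochondrial protein that starts mitophagy, ran from 42.2 to 48.6 FPKM in Ctrl and from 38.2 to 70.8 FPKM in Case (0.16 ± 0.14). Bnip3 spread more widely among Case mice than among Ctrl mice (SD 10.5 against 2.77 FPKM), while the SD of Ndrg1 differed little (74.4 against 66.3 FPKM). Spread was not tested. Car9 (chr4:43506966-43513729), a carbonic anhydrase at the cell surface, had 4 of 6 Case kidneys between 4.83 and 5.44 FPKM, below every Ctrl kidney, and the other 2 at 8.18 and 9.57 FPKM (log2 fold change -0.34 ± 0.21). Adm (chr7:110627661-110629820), the vasodilator peptide adrenomedullin, ran from 1.66 to 3.13 FPKM in Ctrl and from 2.19 to 3.71 FPKM in Case (0.17 ± 0.18). Case replicate 1 was the highest Case kidney for Bnip3 and Adm, and without it their log2 fold changes were 0.05 and 0.06. That of Bnip3 was 0.24 without Case replicate 3, that of Adm was 0.07 without Ctrl replicate 3 and 0.27 without Ctrl replicate 4, and that of Ndrg1 was -0.15 without Ctrl replicate 4 and -0.14 without Case replicate 6. Ankrd37 (chr8:45996902-45999867), an ankyrin repeat protein induced by HIF-1, had only 6 to 32 counts per library, and its log2 fold change of 0.58 had an SE of 0.31.

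**Figure D2:**
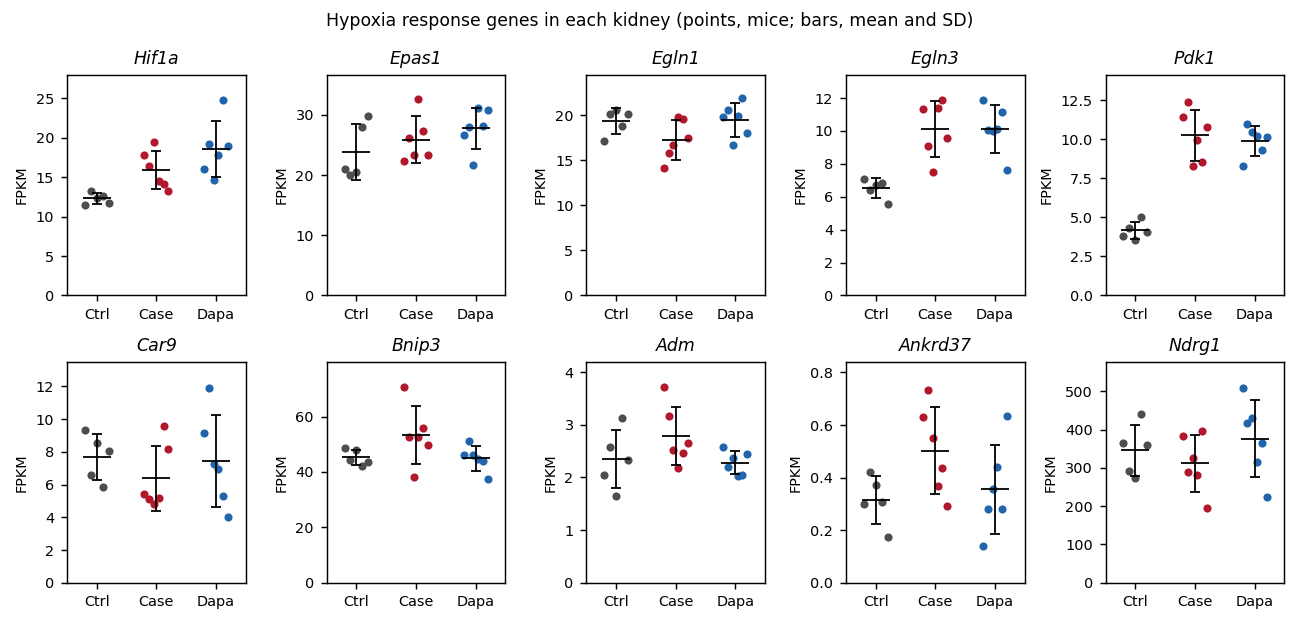
FPKM (y axis, from 0) of the 10 genes in each kidney of the Ctrl, Case and Dapa groups (x axis); points are mice, and bars give the mean and SD. For Pdk1 all 12 db/db kidneys lie between 8.26 and 12.4 FPKM, above the Ctrl kidneys at 3.55 to 5.03 FPKM.

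The comparison of Dapa with Case addressed what dapagliflozin changed in db/db kidneys. None of the 10 genes passed by edgeR's quasi-likelihood test, and none had an unadjusted p under 0.05. The same test called 0% of all 14573 genes, while 12.9% had an unadjusted p under 0.05. DESeq2 and edgeR's exact test also called 0 of the 10, while they called 1.36% and 0.858% of all genes. The median log2 fold change was 0.03 for the 10 genes and -0.01 for all genes tested.

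For Pdk1, Dapa kidneys ran from 8.28 through 10.2 to 11.0 FPKM, inside the range of the Case kidneys. The log2 fold change from Case to Dapa was -0.07, with a 95% interval from -0.35 to 0.20. It was -0.14 without Case replicate 3 and -0.01 without Case replicate 2. Egln3 in Dapa kidneys ran from 7.61 through 10.1 to 11.9 FPKM, and its mean was 10.1 FPKM in both groups (log2 fold change -0.03, 95% interval -0.33 to 0.28).

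Hif1a ran from 14.6 through 18.4 to 24.8 FPKM in Dapa kidneys, with the highest value in Dapa replicate 11. Its log2 fold change from Case was 0.20 ± 0.12 (q = 0.464, edgeR's quasi-likelihood test), and 0.12 without that mouse. Epas1 (0.08 ± 0.11) and Egln1 (0.15 ± 0.1) had small differences on the log2 scale, with 4 of 6 Dapa kidneys above every Case kidney for Egln1. With 1 mouse left out, Epas1 ran from 0.04 to 0.15 and Egln1 from 0.10 to 0.19. The smallest unadjusted p values among the 10 genes were those of Adm and Bnip3. Adm had 2.28 ± 0.218 FPKM in Dapa against 2.78 ± 0.556 FPKM in Case, a log2 fold change of -0.31 ± 0.15 (unadjusted p = 0.0615 and q = 0.401, edgeR's quasi-likelihood test). Bnip3 had 45.0 ± 4.52 FPKM against 53.3 ± 10.5 FPKM, a log2 fold change of -0.27 ± 0.13 (unadjusted p = 0.0638 and q = 0.404, same edgeR test). Without Case replicate 1, the highest Case kidney for both, the log2 fold change was -0.21 for Adm and -0.17 for Bnip3. Among the 3 Dapa and 5 Case libraries whose FPKM matched their counts, mean log2 values differed by -0.12 for Adm and -0.05 for Bnip3. Between the other 3 Dapa libraries and Case replicate 1, the only other Case library, they differed by -0.82 and -0.81. The values of Dapa and Case kidneys overlapped for both genes.

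The other targets spread widely in Dapa kidneys. Ndrg1 ran from 223 to 509 FPKM, with 3 of 6 above every Case kidney (log2 fold change 0.26 ± 0.20, and from 0.15 without Dapa replicate 7 to 0.37 without Dapa replicate 12). Car9 ran from 4.05 to 11.9 FPKM (0.19 ± 0.26, and from 0.02 without Dapa replicate 8 to 0.34 without Case replicate 5), and Ankrd37 from 0.139 to 0.636 FPKM (-0.52 ± 0.34). Their 95% intervals all included 0.

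Dapa kidneys were then compared with Ctrl kidneys. Hif1a, Egln3 and Pdk1 rose, 3 of 10 genes against 29.1% of all 14647 genes tested, of which 14.2% were called higher and 14.9% lower. The share of the 10 genes was thus near that of all genes. The median log2 fold change was 0.04 for the 10 genes and 0.02 for all genes tested.

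Pdk1 had 9.90 ± 0.963 FPKM in Dapa, 2.38-fold the Ctrl mean (7.18% of all genes passed with a fold above 2 of these means), with a log2 fold change of 1.15 ± 0.1 (q = 5.87e-05, edgeR's quasi-likelihood test). Egln3 had 10.1 ± 1.45 FPKM and a log2 fold change of 0.53 ± 0.12 (q = 0.00559, same edgeR test). Hif1a had 18.6 ± 3.52 FPKM against 12.3 ± 0.718 FPKM and a log2 fold change of 0.48 ± 0.11 (q = 0.00562, same edgeR test). In each of the 3 genes all 6 Dapa kidneys were above all 5 Ctrl kidneys in FPKM. This held upward for 9.79% of all genes tested and downward for 4.74%. After TMM scaling (factor 1.03 for Dapa replicate 12 and 0.912 for Ctrl replicate 1), Egln3 in Dapa replicate 12 lay below Ctrl replicate 1. The 3 calls held without any one mouse, with Hif1a between 0.40 and 0.54, Egln3 between 0.47 and 0.61 and Pdk1 between 1.11 and 1.21 on the log2 scale.

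The remaining 7 genes lay between -0.15 and 0.11 in log2 fold change and did not pass. With 1 mouse left out, Car9 ran from -0.33 to -0.02, Adm from -0.23 to -0.04 and Bnip3 from -0.16 to -0.06. Egln1 ran from -0.12 to -0.05 and Epas1 from 0.07 to 0.20, and none of these passed. Egln1 had 19.5 ± 1.86 FPKM in Dapa, and the ratio of Egln3 to Egln1 was 0.521 ± 0.0674, above every Ctrl kidney and overlapping with Case. The ratio of Epas1 to Hif1a was 1.95 ± 0.426 in Ctrl, 1.67 ± 0.404 in Case and 1.52 ± 0.217 in Dapa. It overlapped between all groups.

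**Figure D3:**
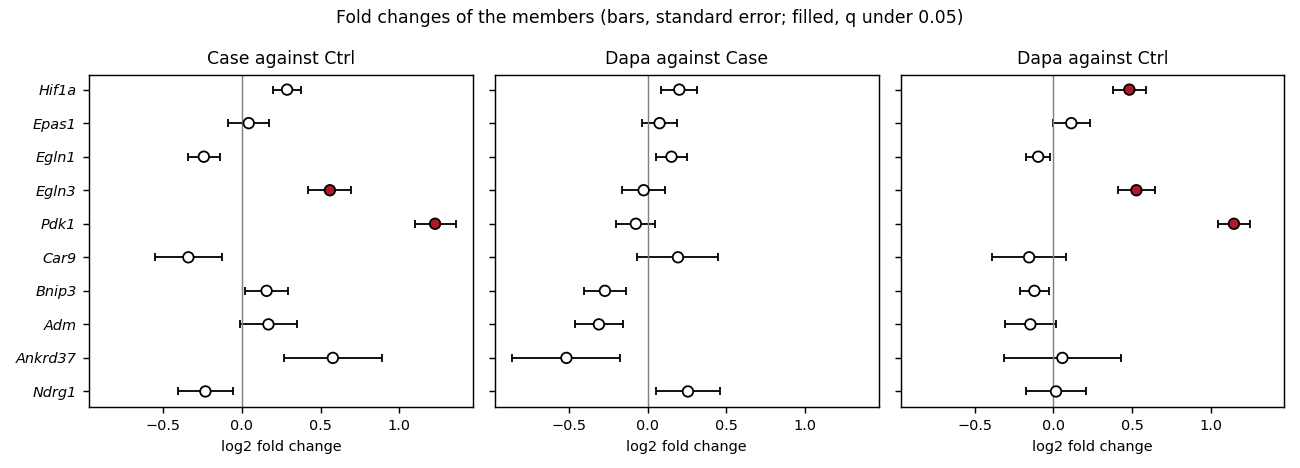
Log2 fold change (x axis) of the 10 genes in the 3 comparisons, with the SE as bars; filled points had q under 0.05 by edgeR's quasi-likelihood test. Egln3 and Pdk1 are filled in Case against Ctrl, none in Dapa against Case, and Hif1a, Egln3 and Pdk1 in Dapa against Ctrl.

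Because Pdk1 changed most, the other 3 pyruvate dehydrogenase kinase genes were examined after its values had been seen. Pdk3, which encodes another kinase of the same enzyme, fell. It ran from 12.4 through 15.3 to 17.4 FPKM in Ctrl, from 5.27 through 7.15 to 9.23 FPKM in Case and from 6.32 through 6.96 to 9.51 FPKM in Dapa. No db/db kidney reached the lowest Ctrl kidney, a separation downward that 3.46% of all genes tested showed in Case and 4.74% in Dapa. Its log2 fold change was -1.15 ± 0.15 for Case (q = 0.000813) and -1.15 ± 0.13 for Dapa (q = 0.000162) against Ctrl, both by edgeR's quasi-likelihood test, and 0.01 ± 0.15 for Dapa against Case. Pdk1 and Pdk3 thus moved in opposite directions by similar amounts on the log2 scale, in the same kidneys.

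Pdk2 was the most abundant of the 4 kinase genes per length and did not pass, with 74.9 ± 5.51 FPKM in Ctrl, 71.1 ± 14.0 FPKM in Case and 74.9 ± 8.18 FPKM in Dapa. Pdk4, the kinase gene known to respond to fasting and fatty acids, had 10.5 ± 3.05, 21.4 ± 19.3 and 17.8 ± 7.58 FPKM in these groups. One Case kidney reached 58.1 FPKM, and Pdk4 did not pass in any comparison (log2 fold change 0.95 ± 0.48 for Case against Ctrl, q = 0.208, edgeR's quasi-likelihood test).

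**Figure D4:**
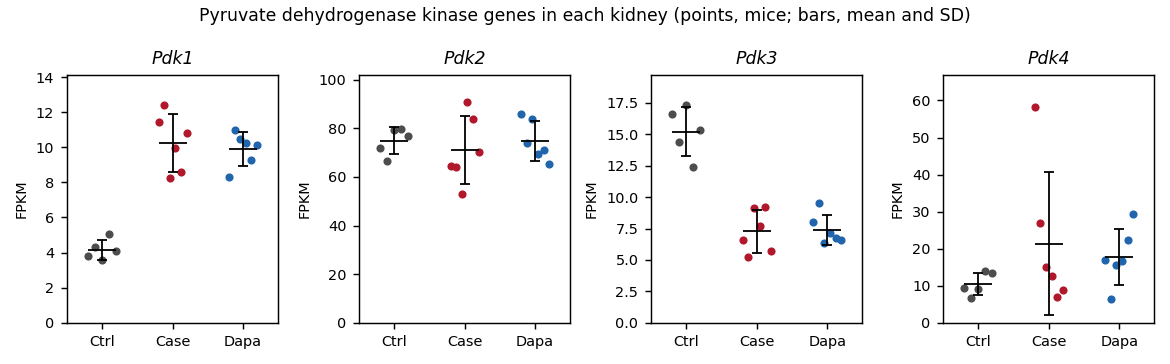
FPKM (y axis, from 0) of the 4 pyruvate dehydrogenase kinase genes in each kidney by group (x axis); points are mice, and bars give the mean and SD. Pdk1 is higher and Pdk3 lower in all 12 db/db kidneys than in the 5 Ctrl kidneys, while Pdk2 and Pdk4 overlap.

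A wider list of 66 other genes of the pathway, all in the table, was examined by role. Of the 62 tested in Case against Ctrl, 5 rose and 6 fell (11 in all), where 13% of all genes were called, 6.09% higher and 6.91% lower. Median log2 fold changes were 0.06 for the list and 0.03 for all genes tested. The 11 calls became 4 without Ctrl replicate 1, 2 or 3, where calls over all genes went from 1895 to 1160, 1150 and 1002. They became 6 without Ctrl replicate 5 or Case replicate 2, where calls over all genes were 1125 and 1366. Counts of Hk2, Slc16a3, Cox4i2 and Epo, the erythropoietin gene, were too low to be tested.

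Among HIF partners and oxygen sensors, 1 of 15 rose and 2 fell (6.09% and 6.91% of all genes). Arnt2, a partner related to ARNT, rose from 9.78 to 15.6 FPKM in the mean (log2 fold change 0.59 ± 0.13), with every Case kidney above every Ctrl kidney. Cul2, the scaffold of the von Hippel-Lindau ubiquitin ligase (-0.37 ± 0.1), and Siah2, a ligase that degrades prolyl hydroxylases (-0.54 ± 0.14), fell. Arnt, Vhl, Hif1an, Egln2 and Hif3a did not pass.

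In glucose uptake and glycolysis, 1 of 13 tested genes rose and 1 fell (6.09% and 6.91% of all genes). Slc2a1, the glucose transporter GLUT1, rose from 5.79 to 9.49 FPKM (0.63 ± 0.19), and Ldha, which turns pyruvate into lactate, fell from 99.7 to 79.3 FPKM (-0.41 ± 0.11). None of 6 tested mitochondrial and mitophagy targets passed in this comparison, and 1 had an unadjusted p under 0.05, as did 28.7% of all genes tested. Of 9 tested targets for vessels, iron and red cells, Trf, the iron carrier transferrin, rose from 3.12 to 8.24 FPKM (1.33 ± 0.33), and Vegfa, the vascular growth factor, fell from 17.6 to 15.7 FPKM (-0.24 ± 0.07).

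In the last group, of 19 targets for transcription, matrix, pH and stress, 2 rose and 2 fell (6.09% and 6.91% of all genes). Kdm3a, a histone demethylase, rose (0.51 ± 0.11), as did Lox, the collagen cross-linking enzyme, at a low level of 0.404 to 1.00 FPKM (1.24 ± 0.33). P4ha1, a collagen prolyl hydroxylase, fell from 6.67 to 4.21 FPKM without overlap (-0.74 ± 0.13), and the lipoprotein receptor gene Vldlr fell (-0.38 ± 0.11). The q values of these 11 genes lay between 0.00421 and 0.0463 by edgeR's quasi-likelihood test. In total 8 of 47 tested HIF targets passed, 4 higher and 4 lower, near the 13% of all genes.

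In Dapa against Ctrl, 11 of the 62 rose and 9 fell, 20 in all, where 29.1% of all genes were called, 14.2% higher and 14.9% lower. The median log2 fold change was 0.08 for the list and 0.02 for all genes tested. Of the 12 with the largest change at 1 FPKM or more, Slc2a1 (0.74 ± 0.12), Arnt2 (0.54 ± 0.09), Kdm3a (0.57 ± 0.11), Trf (0.74 ± 0.24), P4ha1 (-0.92 ± 0.1) and Siah2 (-0.62 ± 0.12) are genes that had also passed in Case, by a comparison with the same Ctrl mice. The others that rose were Angpt2, an antagonist of vessel stability, from 1.21 to 4.63 FPKM (1.83 ± 0.40), Edn1, the vasoconstrictor endothelin (1.06 ± 0.29), Zfp395 (0.73 ± 0.17) and the enolase gene Eno1 (0.40 ± 0.09). Hmox1, the heme-degrading enzyme, fell from 8.23 to 4.70 FPKM (-0.91 ± 0.25), and Bhlhe40, a transcriptional repressor, fell from 17.3 to 11.8 FPKM (-0.66 ± 0.14). These 6 had not passed in Case, where their means lay on the same side of Ctrl, at 3.29 FPKM for Angpt2, 1.18 FPKM for Edn1, 7.16 FPKM for Zfp395, 30.2 FPKM for Eno1, 6.10 FPKM for Hmox1 and 12.3 FPKM for Bhlhe40. The q values of the 12 lay between 0.000162 and 0.0364 by edgeR's quasi-likelihood test.

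**Figure D5:**
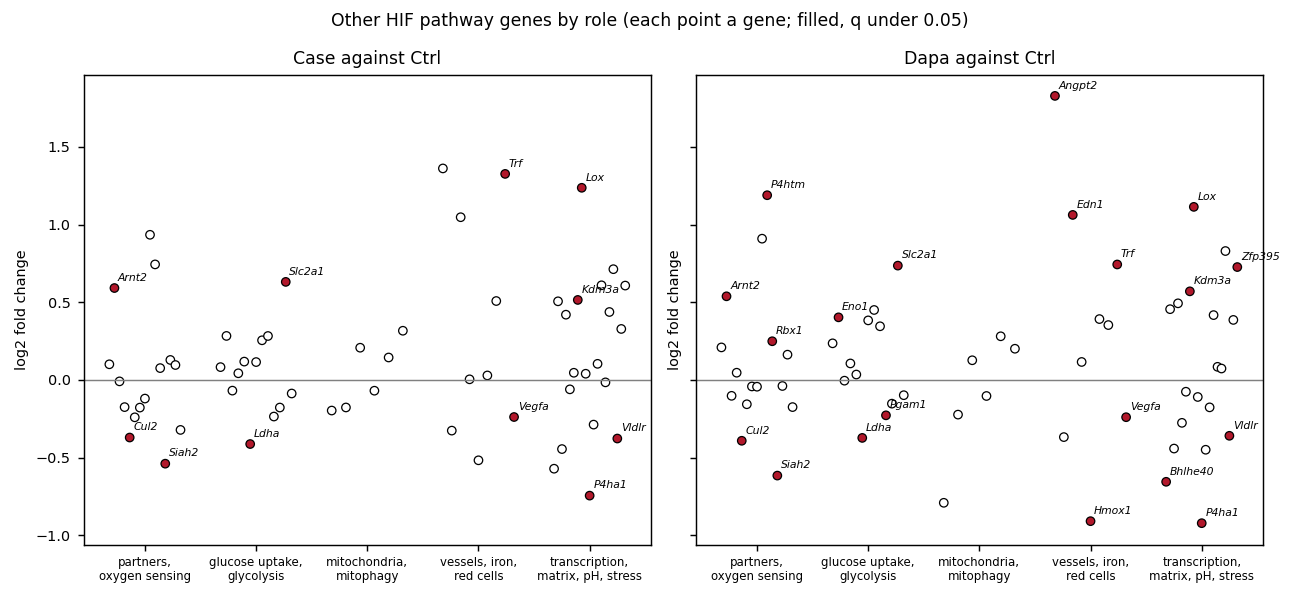
Log2 fold change (y axis) of the other genes of the pathway in 5 roles (x axis) for Case and Dapa against Ctrl; each point is a gene, and filled, named points had q under 0.05 by edgeR's quasi-likelihood test. Filled points lie on both sides of 0, with 5 above and 6 below in Case and 11 above and 9 below in Dapa.

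Between Dapa and Case, 0 of the 63 tested genes passed by edgeR's quasi-likelihood test, DESeq2 or edgeR's exact test, against 0%, 1.36% and 0.858% of all genes, and 3 had an unadjusted p under 0.05 by the first, against 12.9%. The 5 with the smallest unadjusted p were Crebbp (log2 fold change 0.23), Trf (-0.58), Ero1l (-0.21), Plod2 (-0.28) and Stc2 (-0.36). Transferrin, at 8.24 FPKM in Case and 5.60 FPKM in Dapa, had an unadjusted p of 0.018 and a q of 0.295 by edgeR's quasi-likelihood test.

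Pairs of the 10 genes were compared from mouse to mouse. Over the 17 mice, with each value taken less its group mean, 0 of 45 pairs reached an adjusted p under 0.05 in permutation tests. The highest Pearson correlation was that of Egln3 with Bnip3 (r = 0.76, permutation p = 0.00326, adjusted p = 0.147; rho = 0.63, permutation p = 0.0107, adjusted p = 0.24), and r was 0.36 without Case replicate 3 and Dapa replicate 12. The highest Spearman correlation was that of Car9 with Bnip3 (rho = 0.75, permutation p = 0.00158, adjusted p = 0.0711; r = 0.55, permutation p = 0.0263, adjusted p = 0.296), and r was 0.43 without Dapa replicates 8 and 12. Pdk1 and Hif1a had an r of -0.09 (permutation p = 0.742) and a rho of 0.03 (permutation p = 0.907). The genes most like the 3 that changed were sought among 11424 genes by Spearman's rho of the same values, as a description over 17 mice. For Pdk1 they were 1700011H14Rik (0.909), S100a13 (0.895) and 1110001J03Rik (0.895), for Egln3 Grpel2 (0.880), Sel1l3 (0.880) and Dgat2 (0.873), and for Hif1a Gm42793 (0.860), Muc1 (0.853) and Col4a5 (0.841).

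In 7 libraries (3 Ctrl, 1 Case and 3 Dapa) the deposited FPKM of 3 genes left out here did not match their counts, for which the labels give no reason. The differences from Ctrl were recomputed within the matching libraries and within these 7 as differences of mean log2 values, with 1 Case mouse among the 7. In Case they were 1.15 for Pdk1 among the matching and 1.40 among the other libraries, 0.63 and 0.64 for Egln3, and 0.22 and 0.47 for Hif1a. In Dapa they were 1.14 and 1.14 for Pdk1, 0.74 and 0.34 for Egln3, and 0.32 and 0.61 for Hif1a. Of the genes that had not passed, the sign turned between the 2 sets for Adm (-0.01 and 0.67), Epas1 (0.03 and -0.12) and Ndrg1 (-0.24 and 0.04) in Case. In Dapa it turned for Ndrg1 (0.39 and -0.40), Car9 (0.26 and -0.68), Bnip3 (0.03 and -0.27), Ankrd37 (-0.26 and 0.27) and Epas1 (-0.03 and 0.26).

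The share of counts on mitochondrial genes was 17.9% to 20.4% in Ctrl, 19.8% to 27.3% in Case and 19.7% to 27.6% in Dapa kidneys, and cell type markers also differed between the groups. The part of either in the results above was not tested. For their counts, the shares of all genes called higher were 6.09% in Case and 14.2% in Dapa against Ctrl, and the shares called lower were 6.91% and 14.9%. All 10 proximal tubule markers had a negative log2 fold change against Ctrl in both db/db groups, 3 falling in Case and 7 in Dapa. Their summed level was 2570 to 2929 FPKM in Ctrl, 1614 to 3023 FPKM in Case and 1834 to 2491 FPKM in Dapa. Of 6 erythrocyte markers 5 rose in each, with sums of 18.6 to 70.2, 57.2 to 439 and 110 to 359 FPKM, and of 8 collecting duct markers 3 rose in Case and 6 in Dapa (162.7 to 207.5, 205.7 to 315 and 243.2 to 439 FPKM). Podocyte markers rose for 2 and 3 of 6 (62.5 to 79.6, 67.9 to 108 and 78.4 to 101.6 FPKM) and endothelial markers for 2 and 2 of 10 (75.3 to 126.9, 97.5 to 143.7 and 94.8 to 176.5 FPKM). Of 8 markers each, those of thick limb and distal tubule rose for 1 and 3, those of pericytes, fibroblasts and smooth muscle for 0 and 4, and those of macrophages for 0 and 0, with 1 Case kidney at a sum of 193 FPKM against a Case median of 40.3 FPKM. The 1 adipocyte marker of 7 with enough counts fell in Case, and 1 Ctrl kidney had a sum of 95.9 FPKM against a Ctrl median of 6.45 FPKM. Of 2 adrenal gland markers tested, 1 rose in each, and no marker of any list was at 0 in every mouse.

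As a check of the labels, Lepr, the gene that carries the db allele, had 1.01 ± 0.572 FPKM in Ctrl, 2.57 ± 1.81 FPKM in Case and 2.64 ± 1.74 FPKM in Dapa. The db allele alters splicing, so a count over the whole gene does not check the genotype. Slc5a2, the gene of the drug's target SGLT2, had 62.1 ± 6.03, 53.7 ± 21.2 and 65.4 ± 12.7 FPKM and did not pass in any comparison.

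Some counts could hold reads of other genes. Of all stretches of 50 bases in the exons of Bnip3, 16.5% also occurred in the exons of other genes, most often Gm16439, as did 1.72% of those of Hif1a, most often in Gm49321, while the other 8 genes shared 0.0855% or less. Exons on the opposite strand covered 22.7% of the exon bases of Ankrd37 (Lrp2bp, and a further 3.70% by Ufsp2), 22.3% of Bnip3 (Gm45507), 9.29% of Car9 (Gm12454), 6.35% of Ndrg1 (Gm17035) and 5.60% of Hif1a (Gm15283). On the same strand, exons of Gm49321 covered 2.51% of the exon bases of Hif1a. Gm16439, Gm49321 and Gm45507 were not found by symbol among the deposited genes, so their levels could not be compared. Lrp2bp had at most 15 counts in any library, while Ufsp2 had up to 751, against 6 to 32 for Ankrd37. Gm12454 fell against Ctrl, by a log2 fold change of -1.34 in Case (q = 0.006) and -2.14 in Dapa (q = 0.000727, both edgeR's quasi-likelihood test), and its part in the counts of Car9 was not tested. The libraries were stranded, but the strand setting of the counting is not given in the sources used here. Pdk1 and Egln3 had no such shared stretches and no overlapping exons.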

How the data were processed

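RNA of whole kidneys from 17 mice was sequenced from oligo(dT)-selected, stranded libraries, 1 per mouse. Alignment was to mm10 by HISAT2 and counting by Stringtie, as the study's methods describe. The authors deposited raw read counts and FPKM for each gene and mouse. Recomputing FPKM from the counts with 1 length per gene gave the deposited FPKM to within 0.00792%, so no TMM factor is in them. Totals were 13039535 to 17779635 counts per library. At the 6 to 32 counts of Ankrd37, counting error is large. No pair of libraries in a group was a duplicate (lowest chi-square per gene 15.0).

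Of 22561 genes, 3 (Sirt1, Tgfb1 and Bmp4) with entries over 2 lines were left out. In 7 libraries (Ctrl replicates 1, 3 and 4, Case replicate 1, Dapa replicates 10, 11 and 12) the FPKM of those 3 did not match their counts, by factors of 0.970 to 1.38.

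Groups followed the sample labels, which name separate mice. Each pair of groups was fitted on its own in R 4.3.3 by the quasi-likelihood test of edgeR 4.0.16, after filterByExpr and TMM scaling, with Benjamini-Hochberg adjustment over all genes tested, after a test on simulated data. limma 3.58.1 and DESeq2 1.42.0 served as alternatives. Pairs of genes were compared with 100000 permutations within groups, using scipy 1.17.1, numpy 2.4.6, pandas 2.3.3 and, for figures, matplotlib 3.10.9 under Python 3.11.15. Ratios are given with no test. The genes and lists were chosen with earlier results of these data known. Named were the 10 genes, the other pathway genes with q under 0.05 and a mean of at least 1 FPKM in the higher group (at most 12 by size of change, or the 5 with the smallest p where none passed), and the 3 genes most like each of the 10 that passed. The Pdk paralogues, the ratios and the shared or overlapping sequences were added after the data were seen. Upstream sequences came from RefSeq, and gene positions from the deposited table. Functional annotation columns of that table were not used.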

Additional observations from a re-analysis of the deposited data

How the results depend on the processing

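In Case against Ctrl 2 of the 10 genes were called, 1 to 3 when each mouse was left out in turn, 1 when a fold above 2 was also asked, and 3 by DESeq2. Of the other pathway genes 11 were called, 4 to 14 when each mouse was left out in turn, and 17 by DESeq2. Over all genes the calls moved too, from 1895 to between 1002 and 2154 with a mouse left out and to 2688 by DESeq2. Hif1a passed with upper quartile scaling (q = 0.0363), with at least 10 counts in every library (q = 0.0452), with DESeq2 (q = 0.0254) and with limma on log2(FPKM + 1) or log2(FPKM + 0.1) (q = 0.0404 and 0.0387). Upper quartile scaling and these limma fits moved the median log2 fold change of all genes by 0.0388, 0.0337 and 0.0643. Hif1a went from 0.287 to 0.326, 0.336 and 0.357 in them. Against Ctrl, 3 genes were called in Dapa under each setting, or 1 when a fold above 2 was also asked.

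The replicate numbers shared by Ctrl and Case did not pair the mice (correlations of deviations -0.0586 to -0.0134, none best with its own number). A replicate block on them, which also leaves out Case replicate 6, called 1 of the 10 genes, 2 of the other pathway genes and 699 of 14466 genes in all, with Egln3 at 0.54 (q = 0.0882, edgeR's quasi-likelihood test). The same mice without the block gave 3, 8 and 1615 calls, with Egln3 at q = 0.0325.

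Signs turned only for log2 fold changes that were small and not called. With a term for the 7 libraries these were Epas1 in Case (-0.0266) and Ndrg1 in Dapa (-0.0476) against Ctrl. With voom and sample weights they were Ankrd37 (-0.026) and Ndrg1 (-0.00197) in Dapa against Ctrl. With limma on log2(FPKM + 1) and log2(FPKM + 0.1) they were Egln3 in Dapa against Case (0.00374 and 0.00444) and Egln1 in Dapa against Ctrl (0.00935 and 0.00967). When each mouse was left out in turn they were Epas1 in Case against Ctrl (-0.0326 to 0.115), Egln3 in Dapa against Case (-0.106 to 0.0471), and Ankrd37 (-0.168 to 0.231) and Ndrg1 (-0.0769 to 0.143) in Dapa against Ctrl. The cause was not tested. Of 687 values of single genes under other settings, 654 kept their direction and their side of the threshold.

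The share of all calls that were higher was 46.9% in Case and 48.7% in Dapa against Ctrl, and with limma on log2(FPKM + 0.1) it was 60.3% and 66.8%.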
